A study of Homo sapiens with 9 samples.

Results

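Skeletal muscle genes were examined in bulk RNA-Seq libraries of xenografts grown from PC3, a human prostate cancer cell line. The gene group was a list of 45 names that covers the contractile apparatus of the muscle fiber, its anchoring at the Z disc, its calcium handling and its energy supply. Of these, 43 were found in both deposited count tables, among 16204 genes listed in either. PGAM2 and ACTN3 were not analysed here. The list was drawn up after earlier results of these counts had shown muscle genes to be high in 1 treated library, and the same libraries are used below, so all levels and differences of the 43 genes are a description and carry no test of their own.

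The study asked how PC3 xenografts that remained after antibody-drug conjugates differed from vehicle-treated ones. Per the series record, each mouse received PC3 cells with Matrigel under the skin of the flank at 11 weeks of age, all mice were male NSG animals, a strain without T, B and natural killer cells that keeps macrophages and granulocytes, and weekly retro-orbital dosing began at a tumor volume of 90 mm3 and ran for 5 cycles. The methods of the study give another age, starting volume and number of cycles for the experiment with both conjugates. There were 9 libraries in 3 groups of 3: vehicle (PBS, 0 mg/kg), libraries titled PDXd and libraries titled TDXd, both at 5 mg/kg. P-DXd (patritumab deruxtecan) binds HER3 and T-DXd (trastuzumab deruxtecan) binds HER2, and both carry the same topoisomerase I inhibitor. The treatment field of each of the 6 treated libraries names the conjugate that its title does not, so the groups are called PDXd-titled and TDXd-titled, and which conjugate either group received cannot be told apart from these records.

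Whole pieces of tumor were lysed, which puts RNA of the human cancer cells and of the mouse host into 1 library, while the tables name human genes only. Whether reads of mouse origin were removed before counting is not given in the sources used here, and the part of host tissue in the values below was not tested. Total counts ran from 54481702 in PDXd-titled replicate 2 to 125538606 in PBS replicate 2. The 8 epithelial and PC3 markers, with KRT8, KRT18 and VIM among them, were summed as CPM (counts for each 1000000 of the TMM-scaled library size). Their sum was 3957 to 4661 CPM in PBS and 4863 to 5428 CPM in the treated libraries, without overlap. KRT8 ran from 407 to 517 CPM in PBS and 1038 to 1273 CPM in the treated libraries. CAV1 went the other way, with 435 to 740 CPM in PBS and 102 to 141 CPM in the treated libraries. In bulk tissue, more cells of a type and more RNA per cell cannot be told apart.

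Skeletal muscle fibers contract when myosin heavy chains (MYH genes) with their light chains (MYL genes) pull on thin filaments of actin, tropomyosin and the troponin complex. An action potential acts on the voltage sensor of the surface membrane, the release channel of the sarcoplasmic reticulum opens, troponin C binds the calcium, and a pump returns it. Fast and slow fibers carry different paralogs of many of these proteins, the myosins and troponins among them. Fast fibers rely more on glycogen breakdown and phosphocreatine, slow fibers more on oxygen and myoglobin.

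Because the fast fiber myosins are close copies of each other, their counts can mix. Over the coding sequences of the canonical GENCODE v44 transcripts, MYH1 and MYH2 were identical at 91.1% of aligned bases with a longest shared run of 259 bases, MYH1 and MYH4 at 89.7% with a run of 221 bases, and MYH1 and MYH7, the slow fiber paralog, at 75.8% with a run of 35 bases. The stretch that follows is coding bases 2701 to 2790 of MYH1 with the aligned bases of 3 paralogs, shown because the longest run shared with MYH2 begins in its first codon. Capitals mark each base that differs from MYH1, of which there are 1 in MYH2, 12 in MYH4 and 25 in MYH7.
MYH1: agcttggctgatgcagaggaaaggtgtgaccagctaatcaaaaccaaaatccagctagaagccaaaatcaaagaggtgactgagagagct
MYH2: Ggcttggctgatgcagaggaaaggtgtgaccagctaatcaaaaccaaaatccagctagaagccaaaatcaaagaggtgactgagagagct
MYH4: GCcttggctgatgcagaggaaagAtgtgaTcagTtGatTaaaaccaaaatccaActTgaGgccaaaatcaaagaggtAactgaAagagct
MYH7: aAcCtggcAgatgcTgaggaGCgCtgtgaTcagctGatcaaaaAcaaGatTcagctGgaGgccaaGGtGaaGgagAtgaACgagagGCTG
Only 2.1% of all 150-base windows of MYH1 occurred unchanged in MYH2 and 1.3% in MYH4, but how the authors' counting treated reads that match more than 1 gene is not given in the sources used here, so the split between MYH1, MYH2 and MYH4 is uncertain. MYH7 is well separated from MYH1 but not from MYH6, a cardiac heavy chain with which it was identical at 90.9% of aligned bases.

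The promoters of the group were looked at for sequence features that the choice of genes did not use. RefSeq promoters (GRCh38.p14) were matched for 30 of the 43 genes, and the 250 bases before the start were searched on both strands for a MEF2 site, a CArG box, an E-box (CANNTG) and an MCAT element (CATTCC), which are the sites of MEF2 factors, serum response factor, MyoD-type factors and TEAD factors. A MEF2 match was present in 8 of the 30 promoters (26.7%), against 1.75% of 35116 promoters of the same length, and a CArG box in 3 (10%) against 1.16%. E-boxes were found in 24 (80.0%) against 61.8%, and MCAT elements in 5 (16.7%) against 11.9%. For the group 1 promoter was kept per gene, whereas the 35116 promoters were not reduced in this way, so the percentages are over unlike units. The 4 promoters that follow show these letters in genes described below, with MEF2 and CArG matches in capitals. ACTA1 has a CArG box, MYH1 a MEF2 match, PVALB both, and TNNT1, the gene that moved least between libraries, neither. Both matches were also absent from the promoters of ATP2A1, CKM, CASQ1, MYH2 and RYR1, genes that differed strongly between libraries. The 4 promoters shown thus do not stand for the group, and whether matches go with levels was not tested.
ACTA1 promoter, chr1:229434095-229434344, minus strand: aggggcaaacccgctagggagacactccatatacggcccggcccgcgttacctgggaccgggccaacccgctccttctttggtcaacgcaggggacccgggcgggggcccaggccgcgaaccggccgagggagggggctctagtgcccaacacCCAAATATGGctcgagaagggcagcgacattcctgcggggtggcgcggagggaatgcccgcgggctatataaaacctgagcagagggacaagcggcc
MYH1 promoter, chr17:10518543-10518792, minus strand: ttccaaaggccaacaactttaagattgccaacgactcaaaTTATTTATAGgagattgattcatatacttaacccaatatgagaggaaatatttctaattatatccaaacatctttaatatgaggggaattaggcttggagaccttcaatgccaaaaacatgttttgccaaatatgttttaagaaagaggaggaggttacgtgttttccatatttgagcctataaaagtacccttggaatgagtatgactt
PVALB promoter, chr22:36819500-36819749, minus strand: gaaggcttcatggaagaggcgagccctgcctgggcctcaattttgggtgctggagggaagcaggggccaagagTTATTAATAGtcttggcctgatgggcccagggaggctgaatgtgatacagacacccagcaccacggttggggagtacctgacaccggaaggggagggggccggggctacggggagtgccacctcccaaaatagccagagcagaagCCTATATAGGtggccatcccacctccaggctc
TNNT1 promoter, chr19:55149207-55149456, minus strand: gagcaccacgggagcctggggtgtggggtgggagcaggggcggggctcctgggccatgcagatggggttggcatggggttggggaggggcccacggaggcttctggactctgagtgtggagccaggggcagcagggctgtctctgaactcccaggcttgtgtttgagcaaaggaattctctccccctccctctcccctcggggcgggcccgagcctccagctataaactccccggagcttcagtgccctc
A match describes the letters of the window and is not a measured binding site.

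The 43 genes together took 0.0183%, 0.0315% and 0.0242% of all counts in PBS replicates 1 to 3, and 0.0727%, 0.0712% and 0.0617% in the TDXd-titled replicates. In the PDXd-titled replicates the shares were 0.0355%, 0.813% and 0.0729%. PDXd-titled replicate 2 was thus 22.9 times as high as replicate 1 of its own group and 11.2 times as high as replicate 3, while the other 8 libraries spanned 0.0183% to 0.0729%. The mean share was 0.0247% ± 0.00658 (SD, n = 3) in PBS, 0.0685% ± 0.00595 (SD, n = 3) in the TDXd-titled group and 0.307% ± 0.438 (SD, n = 3) in the PDXd-titled group, or 0.0542% ± 0.0264 (SD, n = 2) without replicate 2. The SD of the PDXd-titled group was larger than its mean, and that library alone sets it.

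A single gene weighed heavily on the totals of the other libraries. TNNT1, the slow fiber troponin T, held 49.0%, 44.7% and 64.7% of the group's counts in PBS and 20.9% to 26.5% in the TDXd-titled libraries, but 2.03% in PDXd-titled replicate 2. Without TNNT1, TNNI1 and MB, the share was 0.00775%, 0.0137% and 0.00464% in PBS, 0.0167%, 0.786% and 0.05005% in the PDXd-titled group, and 0.0501%, 0.0504% and 0.0386% in the TDXd-titled group. On this trimmed list, which was cut after the values were seen, the TDXd-titled mean was 5.34 times the PBS mean, against 2.78 times for all 43 genes. PDXd-titled replicate 2 then stood 15.6 times above the next highest library.

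**Figure D1:**
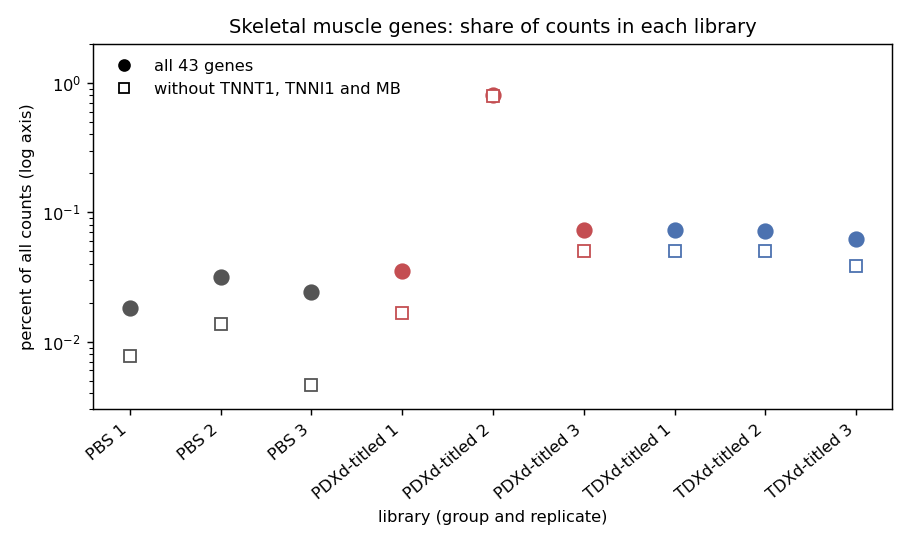
Share of all counts (percent, log axis) taken by the 43 skeletal muscle genes in each of the 9 libraries, with PBS in gray, PDXd-titled in red and TDXd-titled in blue. Filled circles are all 43 genes and open squares leave out TNNT1, TNNI1 and MB; PDXd-titled replicate 2 lies at 0.813% and 0.786%, and no other library exceeds 0.0729%.

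Thin filament genes and those of giant proteins had the highest summed CPM of all roles in PDXd-titled replicate 2, at 3065 CPM, whereas in PBS the slow troponins led with 106.9 to 171 CPM against 29.5 to 65.0 CPM. ACTA1, the actin of the skeletal thin filament, was at 3.56, 16.8 and 0.294 CPM in the PBS libraries, 27.4, 1327 and 90.6 CPM in the PDXd-titled libraries and 81.4, 109 and 73.0 CPM in the TDXd-titled libraries. All treated libraries lay above all PBS libraries, and PDXd-titled replicate 2 was 22.5 times the mean of the other libraries of its group. TPM2, a tropomyosin that smooth muscle and fibroblasts also make, was at 34.8, 34.3 and 20.8 CPM in the PBS libraries, 38.4, 1464 and 114 CPM in the PDXd-titled libraries and 119.5, 112 and 85.5 CPM in the TDXd-titled libraries. Its PBS values were close to that of PDXd-titled replicate 1, so for this gene the group difference rested on the other treated libraries. NEB, the ruler protein nebulin, was at 2.65, 5.28 and 2.33 CPM in the PBS libraries, 3.70, 161 and 9.98 CPM in the PDXd-titled libraries and 13.9, 8.66 and 8.35 CPM in the TDXd-titled libraries. The PDXd-titled and PBS values of NEB overlapped. TTN, the giant elastic protein titin, had 113 CPM in PDXd-titled replicate 2 and 4.45 to 13.2 CPM in the other libraries, with overlap between the groups.

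Fast fiber myosin heavy chains were nearly absent from PBS replicate 3, with 0 counts of MYH1, 0 of MYH2 and 2 of MYH4. MYH1, the heavy chain of the IIx type, was at 1.54, 8.31 and 0 CPM in the PBS libraries, 12, 671 and 48.4 CPM in the PDXd-titled libraries and 37.6, 41.7 and 35.0 CPM in the TDXd-titled libraries. MYH2, the IIa type, was at 1.4, 5.27 and 0 CPM in the PBS libraries, 4.76, 472 and 19.5 CPM in the PDXd-titled libraries and 17.3, 18.1 and 15.0 CPM in the TDXd-titled libraries. MYH4, the IIb type, was at 1.24, 6.95 and 0.0178 CPM in the PBS libraries, 8.03, 455 and 26.8 CPM in the PDXd-titled libraries and 26.6, 22.4 and 23.4 CPM in the TDXd-titled libraries. In every treated library MYH1 led the sum of MYH1, MYH2, MYH4, MYH8, MYH3 and MYH7 with 40.2% to 49.7% of its counts, followed by MYH4 or, in PDXd-titled replicate 2, by MYH2 with 28.3%. PBS replicate 2 had a like order, with 34.6% MYH1, whereas MYH3, an embryonic heavy chain outside the list, took 57.0% of the sum in PBS replicate 1 and 99.1% of only 222 counts in PBS replicate 3. The 2 fast light chain genes followed the heavy chains. MYLPF, the regulatory light chain of fast fibers, was at 0.0682, 0.187 and 0.0178 CPM in the PBS libraries, 0.631, 32.8 and 2.86 CPM in the PDXd-titled libraries and 2.62, 3.36 and 2.38 CPM in the TDXd-titled libraries. MYL1, their essential light chain, was at 0.0227, 0.250 and 0.00890 CPM in the PBS libraries, 0.405, 28.1 and 1.78 CPM in the PDXd-titled libraries and 1.54, 2.58 and 1.39 CPM in the TDXd-titled libraries. For both, all treated libraries exceeded all PBS libraries.

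Slow fiber myosin genes were low throughout. MYH7, the slow heavy chain, was at 0.0341, 0.00780 and 0 CPM in the PBS libraries, 0.0596, 5.65 and 0.0913 CPM in the PDXd-titled libraries and 0.565, 0.404 and 0.228 CPM in the TDXd-titled libraries. It had the largest ratio of PDXd-titled replicate 2 to the rest of its group, 75.0, on very low values in the other libraries, and its counts may include reads of MYH6. MYL3, a slow essential light chain, had 0 counts in all PBS libraries and 0.0476, 1.36 and 0.0761 CPM in the PDXd-titled libraries and 0.0827, 0.175 and 0.0761 CPM in the TDXd-titled libraries. Against a floor of 3 counts in each PBS library, its TDXd-titled mean was at least 3.96-fold higher. MYL2, the slow regulatory light chain, did not share the pattern, with 0.409, 0.336 and 0.231 CPM in the PBS libraries, 0.727, 0.679 and 0.335 CPM in the PDXd-titled libraries and 0.344, 0.282 and 0.244 CPM in the TDXd-titled libraries. MYH8, a perinatal heavy chain, was at 0.0227, 0.258 and 0 CPM in the PBS libraries, 0.250, 24.3 and 0.821 CPM in the PDXd-titled libraries and 1.49, 1.52 and 1.1 CPM in the TDXd-titled libraries, which is the fast fiber pattern at a lower level.

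Troponin genes split by fiber type. The fast fiber genes TNNC2, TNNI2 and TNNT3 encode the calcium-binding, inhibitory and tropomyosin-binding subunits. TNNC2 was at 0.784, 4.63 and 0.356 CPM in the PBS libraries, 11.9, 690.0 and 37.2 CPM in the PDXd-titled libraries and 29.5, 29.0 and 28.2 CPM in the TDXd-titled libraries. TNNI2 was at 0.261, 1.57 and 0.365 CPM in the PBS libraries, 3.24, 170.3 and 9.63 CPM in the PDXd-titled libraries and 9.06, 10.4 and 6.97 CPM in the TDXd-titled libraries. TNNT3 was at 0.352, 1.01 and 0 CPM in the PBS libraries, 1.41, 111 and 5.79 CPM in the PDXd-titled libraries and 5.84, 5.87 and 4.42 CPM in the TDXd-titled libraries. For these 3 genes the treated libraries lay above the PBS libraries without overlap, and PDXd-titled replicate 2 was 26.5 to 30.9 times the mean of replicates 1 and 3. The slow fiber genes did otherwise. TNNT1 was at 92.6, 138 and 154 CPM in the PBS libraries, 130.3, 165 and 159 CPM in the PDXd-titled libraries and 153, 147 and 167 CPM in the TDXd-titled libraries. TNNI1 was at 13.9, 19.6 and 17.3 CPM in the PBS libraries, 17.4, 54.9 and 23.0 CPM in the PDXd-titled libraries and 26.8, 17.8 and 21.1 CPM in the TDXd-titled libraries. TNNT1 did not have its highest value in PDXd-titled replicate 2 and TNNI1 was raised there by a ratio of only 2.72, and both had overlapping groups. TNNC1, which cardiac muscle uses too, was at 0.443, 0.328 and 0.160 CPM in the PBS libraries, 0.846, 7.41 and 2.17 CPM in the PDXd-titled libraries and 1.96, 1.28 and 1.19 CPM in the TDXd-titled libraries, above PBS in every treated library.

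Myosin binding proteins, which tie the thick filament together, gave the same picture at lower levels. MYBPC1, the slow type, was at 0.182, 0.421 and 0.0534 CPM in the PBS libraries, 0.917, 21.1 and 2.1 CPM in the PDXd-titled libraries and 2.44, 2.70 and 1.75 CPM in the TDXd-titled libraries. MYBPC2, the fast type, was at 0, 0.258 and 0.0267 CPM in the PBS libraries, 0.357, 27.4 and 0.989 CPM in the PDXd-titled libraries and 0.964, 0.834 and 0.792 CPM in the TDXd-titled libraries. The fast type stood further out in PDXd-titled replicate 2, with a ratio to replicates 1 and 3 of 40.7 against 14.0 for the slow type.

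Z disc and costamere genes differed among themselves. DES, the intermediate filament desmin that links Z discs, was at 6.94, 7.24 and 1.06 CPM in the PBS libraries, 7.36, 224 and 25.7 CPM in the PDXd-titled libraries and 26.4, 23.3 and 20.1 CPM in the TDXd-titled libraries. MYOZ1, a calcineurin-binding Z disc protein of fast fibers, was at 0.170, 1.99 and 0.810 CPM in the PBS libraries, 3.28, 148 and 8.15 CPM in the PDXd-titled libraries and 6.70, 6.49 and 6.78 CPM in the TDXd-titled libraries. LDB3, a PDZ-LIM protein of the Z disc, was at 1.93, 4.06 and 3.34 CPM in the PBS libraries, 5.88, 80.9 and 8.64 CPM in the PDXd-titled libraries and 8.69, 8.15 and 7.02 CPM in the TDXd-titled libraries. The ratio of PDXd-titled replicate 2 to the mean of replicates 1 and 3 ran from 3.23 for CSRP3, the muscle LIM protein, to 25.8 for MYOZ1. ACTN2, a Z disc actinin of all fiber types, had a ratio of 6.22, and TCAP, the titin cap, one of 4.26. CSRP3 and ACTN2 were above PBS in all other treated libraries, with TDXd-titled means 14.7 and 11.9 times the PBS means. The margin was small in PDXd-titled replicate 1, at 0.941 and 3.44 CPM against 0.609 and 1.83 CPM in PBS replicate 2. MYOT, the actin-crosslinking protein myotilin, went against the group, with 2.15, 1.83 and 1.39 CPM in the PBS libraries, 0.762, 2.51 and 0.745 CPM in the PDXd-titled libraries and 1.23, 1.49 and 0.883 CPM in the TDXd-titled libraries. XIRP2, KLHL41, SMPX and CAV3, proteins of the myofibril edge, of sarcomere assembly, of the costamere and of surface caveolae, had ratios of 11.6, 12.5, 8.41 and 8.20.

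Calcium handling genes stood far out in PDXd-titled replicate 2. Their summed CPM was 42.2 times the mean of replicates 1 and 3, against 45.3 times for the developmental myosin gene MYH8, 26.5 times for the fast myosin genes, 12 times for the Z disc genes and 1.37 times for the slow troponins. ATP2A1, the calcium pump of fast fibers, was at 2.58, 5.56 and 1.19 CPM in the PBS libraries, 6.92, 615 and 17.2 CPM in the PDXd-titled libraries and 20.1, 20.1 and 12.5 CPM in the TDXd-titled libraries. CASQ1, the calcium store protein calsequestrin, was at 0.295, 1.12 and 0.160 CPM in the PBS libraries, 2.38, 192 and 8.79 CPM in the PDXd-titled libraries and 8.79, 7.67 and 6.68 CPM in the TDXd-titled libraries. RYR1, the release channel, was at 0.102, 0.679 and 0.0178 CPM in the PBS libraries, 1.24, 61.0 and 3.01 CPM in the PDXd-titled libraries and 4.05, 3.13 and 2.27 CPM in the TDXd-titled libraries, with no overlap between treated and PBS libraries. CACNA1S, the voltage sensor, and TRDN, which anchors the release complex, had ratios of 21.2 and 20.1. PVALB, a calcium buffer of the fastest fibers, was at 0 in PBS replicates 1 and 3 and reached 6.51 CPM in PDXd-titled replicate 2, 53.4 times the mean of the others of its group.

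Energy genes were divided. CKM, the creatine kinase of the muscle cytosol, was at 0.114, 1.44 and 0.0534 CPM in the PBS libraries, 2.33, 209 and 8.87 CPM in the PDXd-titled libraries and 8.09, 10.6 and 6.38 CPM in the TDXd-titled libraries. ENO3, the muscle enolase of glycolysis, was at 9.42, 7.97 and 4.26 CPM in the PBS libraries, 5.41, 247 and 11.8 CPM in the PDXd-titled libraries and 12.3, 12.8 and 8.68 CPM in the TDXd-titled libraries, with overlap between PBS and both treated groups. PYGM, which breaks down glycogen, had a ratio of 50.9 in PDXd-titled replicate 2, and CKMT2, the mitochondrial creatine kinase, one of 9.77. MB, the oxygen store myoglobin, was at 2.56, 17.0 and 21.0 CPM in the PBS libraries, 39.6, 47.8 and 50.8 CPM in the PDXd-titled libraries and 41.2, 41.1 and 48.3 CPM in the TDXd-titled libraries. The 6 treated libraries were alike for MB and above PBS, and PDXd-titled replicate 2 did not stand out.

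**Figure D2:**
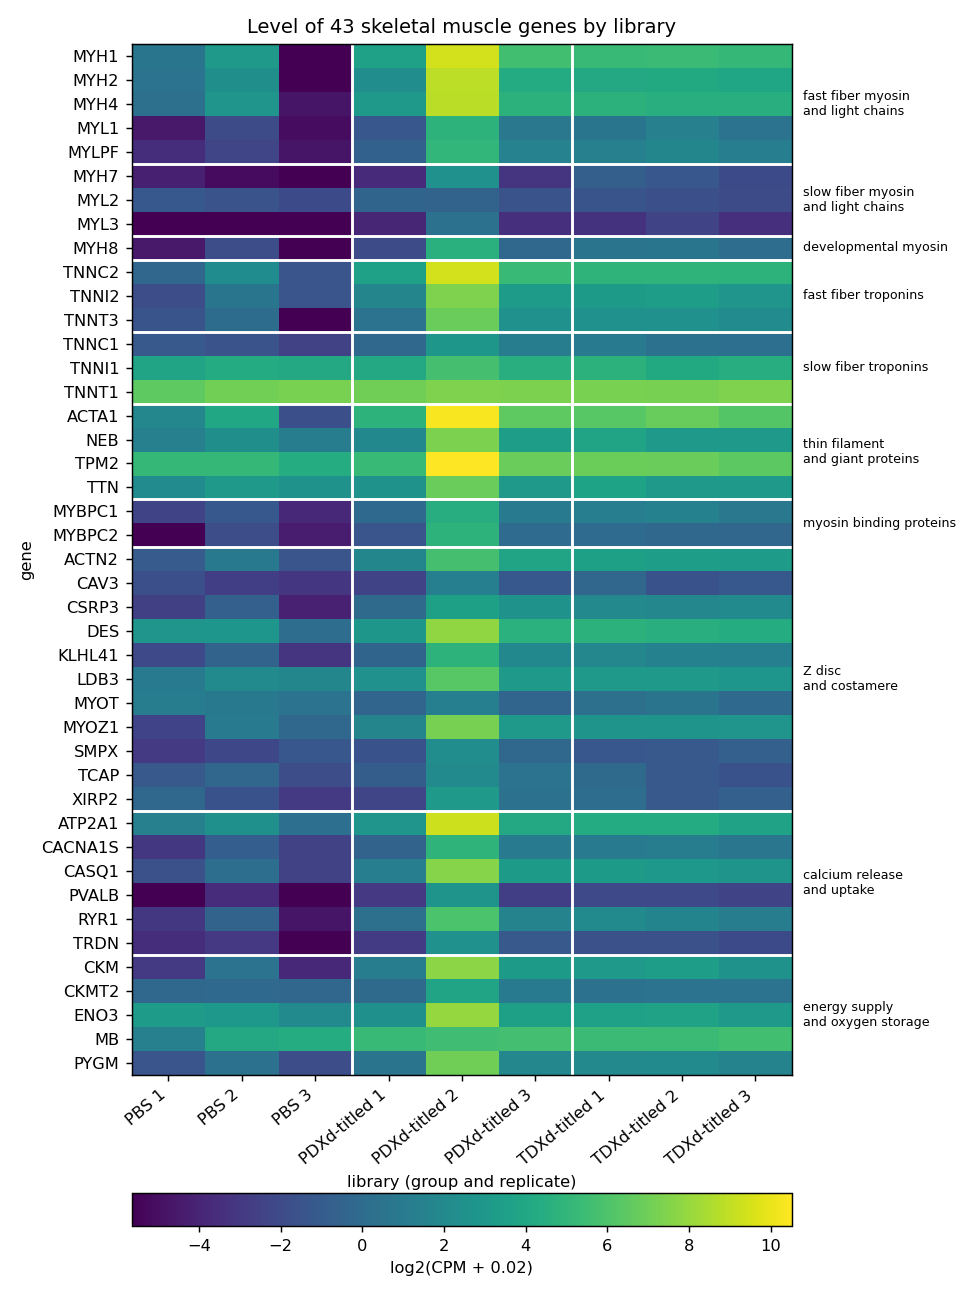
Level of the 43 genes as log2(CPM + 0.02) in the 9 libraries, with genes in rows by role and white lines between roles and groups. PDXd-titled replicate 2 is the brightest column for 40 of the 43 genes, TNNT1 is even across libraries, and the myosin heavy chains are darkest in PBS replicate 3.

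Per kilobase of exon, the order of the genes differed between PDXd-titled replicate 2 and the TDXd-titled group. TNNC2 led in the former at 815 CPM per kb, followed by ACTA1 at 558, TPM2 at 459.9, TNNI2 at 156 and ATP2A1 at 135 CPM per kb. In the TDXd-titled group TNNT1 led at a mean of 73.5 CPM per kb, ahead of ACTA1 at 36.9, TNNC2 at 34.1, TPM2 at 33.2 and MB at 20.4 CPM per kb. The ranges of ACTA1, TNNC2 and TPM2 over the 3 TDXd-titled libraries overlapped, so their order there is not fixed. In PBS, TNNT1 was at a mean of 60.4 CPM per kb, TPM2 at 9.42 and MB at 6.32 CPM per kb, and every other gene of the list was at or below 2.89 CPM per kb.

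PDXd-titled replicate 2 was the highest of the 9 libraries for 40 of the 43 genes, where it was the highest for 9.58% of all 16008 genes in both tables. It was at least 2 times the next highest library for 38 genes, against 1.08% of all genes, and at least 5 times the mean of replicates 1 and 3 for 35, against 1.53%. The ratio to replicates 1 and 3 had a median of 21.2 over the 43 genes and ran from 1.06 for MB to 75.0 for MYH7. The 8 genes under 5 times were TNNT1, TNNI1, TNNC1, MYL2, MB, MYOT, TCAP and CSRP3. Of all 245 genes at least 5 times higher in this library, 35 were of the list, 39 belonged to the other muscle, myogenic and heart lists described below, 1 to a list of another cell type and 170 to no list. Since earlier results had shown this library to be high in muscle genes, these counts describe how far that went.

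**Figure D3:**
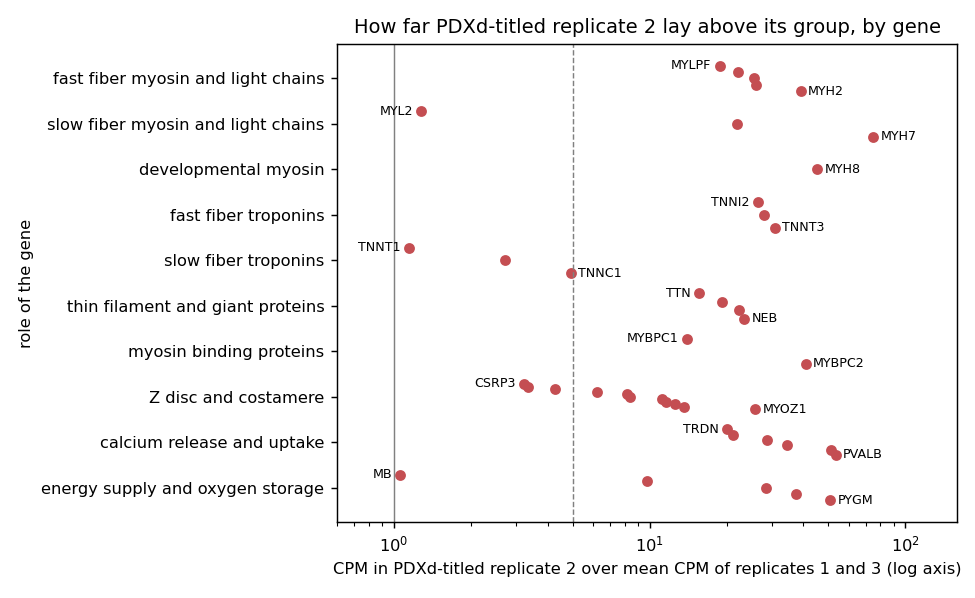
CPM in PDXd-titled replicate 2 divided by the mean CPM of PDXd-titled replicates 1 and 3 (log axis), 1 point for each of the 43 genes, grouped by role, with the lowest and highest gene of each role named. The solid line marks equal levels and the dashed line 5 times; MYH7 is highest at 75.0, and TNNT1, MYL2 and MB lie near equality at 1.14, 1.28 and 1.06.

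The other libraries differed among themselves too. PDXd-titled replicate 1 was the lowest of the 6 treated libraries for 40 of the 43 genes, against 21.3% of all genes, and PDXd-titled replicate 3 lay within the range of the TDXd-titled libraries for 21, above it for 17 and below it for 5. The 3 TDXd-titled libraries were close, with a ratio of highest to lowest whose median over the genes was 1.42 and whose maximum was 2.93, for TCAP. Within PBS, replicate 2 was the highest for 31 genes (22.0% of all genes), replicate 3 the lowest for 31 (34.9% of all genes), and the order 2, 1, 3 held for 23 (6.41% of all genes). PBS replicate 3 had 0 counts for 8 of the genes, replicate 1 for 3 and replicate 2 for 1, and no treated library had 0 for any.

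In the comparison of the PDXd-titled group with PBS, edgeR tested 40 of the 43 genes and called 24 higher and 0 lower, at an adjusted p of at most 0.05 over all genes and a fold change of at least 1.5. Of all 14945 genes tested, 25.0% were called and 11.2% were called higher. The median log2 fold change was 5.04 over the 40 genes and -0.005 over all genes. The largest values were those of CKM at 7.05 (SE 2.02), TNNC2 at 6.99 (SE 1.86), MYLPF at 6.99 (SE 1.67) and CASQ1 at 6.98 (SE 1.83) on the log2 scale. Without PDXd-titled replicate 2 the median fell to 2.34 and 3 genes were called (MYLPF, TNNC1 and ACTN2), against 16.1% of all genes called and 7.08% called higher, and CKM was then at 3.38 (SE 1.31). MYH1, MYH2 and MYH4 were not called although their log2 fold changes were 6.21 (SE 2.04), 6.22 (SE 2.1) and 5.90 (SE 1.98), with large standard errors. The count of 24 also fell to 8 without PBS replicate 2, to 5 without PBS replicate 3 and to 5 without PDXd-titled replicate 3. The share of all genes called in these fits is not given here, and fewer libraries can lower calls for any gene.

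By levels alone, the PDXd-titled libraries lay above the PBS libraries without overlap for 30 of the 43 genes, against 25.7% of all genes, and below them for none. Leaving out PDXd-titled replicate 2, 30 genes were again above, against 28.9% of all genes, and MYOT alone was below.

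Against PBS, the TDXd-titled group had 42 genes tested, of which 27 were called higher and 0 lower, where 28.6% of all 14915 genes tested were called and 13.1% called higher. The median log2 fold change was 2.82, against -0.019 for all genes. MYLPF was at 4.87 (SE 0.67), MYH7 at 4.85 (SE 0.88), CKM at 3.93 (SE 1.06), TNNC2 at 3.89 (SE 0.87) and ACTA1 at 3.67 (SE 1.12). Apart from MYH7, which was not tested in the PDXd-titled group, these values were smaller than those of that group with all its libraries and had smaller standard errors. Of the genes tested, 15 were not called. Among these, TNNT1, TNNI1, MYL2, MYOT and TCAP were at 0.28 (SE 0.18), 0.37 (SE 0.19), -0.16 (SE 0.38), -0.57 (SE 0.30) and 0.20 (SE 0.56). MYH1, MYH2 and MYH4 were not called either, at 3.52 (SE 1.29), 2.91 (SE 1.24) and 3.13 (SE 1.23), with large standard errors. The rest were MB, TTN, ENO3, TRDN, XIRP2, SMPX and CAV3. Leaving out TDXd-titled replicate 1, 2 or 3 in turn gave 15, 16 and 17 called genes, with no share of all genes given for these fits. The TDXd-titled libraries were above PBS without overlap for 35 of the 43 genes, against 29.1% of all genes. Of the 43 genes, 23 were called in both of these comparisons and 28 in at least 1 of them, with the same PBS libraries in both. Of all 15083 genes tested in either comparison, 10.1% were called higher in both and 14.0% in at least 1.

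**Figure D4:**
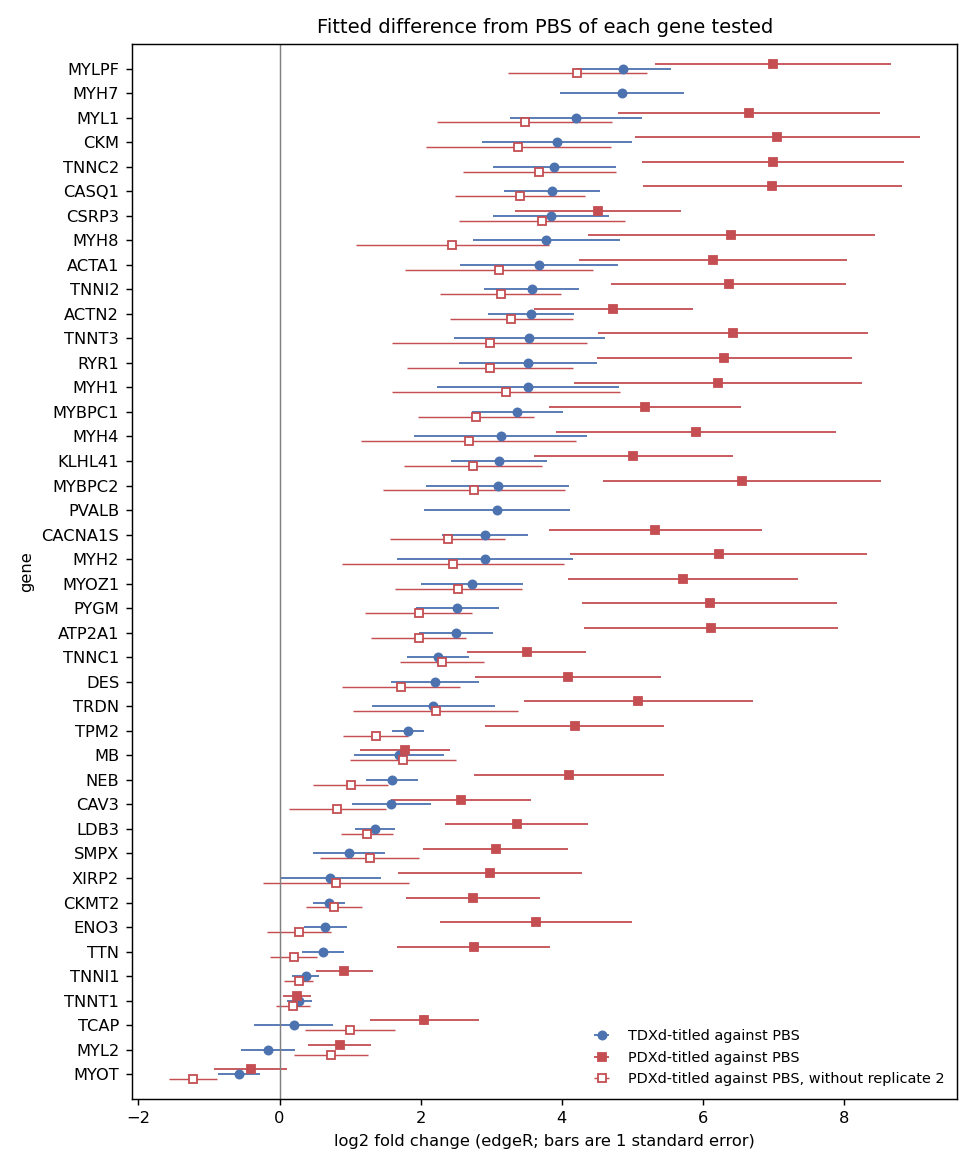
Fitted log2 fold change against PBS (edgeR, bars are 1 standard error) for the 42 genes tested in the TDXd-titled group (blue circles), with the PDXd-titled group (filled red squares) and that group without replicate 2 (open red squares). Without that library the PDXd-titled median moves from 5.04 to 2.34, near the TDXd-titled median of 2.82; MYH7 and PVALB were not tested in the PDXd-titled group.

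With both treated groups set against PBS, a comparison that does not depend on which conjugate a library received, 42 genes were tested and 32 were called higher and 0 lower, where 32.2% of all 15070 genes were called and 15.2% called higher. The median log2 fold change of 4.42 became 2.68 without PDXd-titled replicate 2, with 33 genes called, where 32.1% of all genes were called and 15.0% called higher. Of the 33, MYOT was called lower, at a log2 fold change of -0.80 (SE 0.29), and 31 genes were called in both fits. Without PBS replicate 3 the count was 14, with no share of all genes given for that fit. The groups of fast myosin and light chain genes, fast troponins, calcium genes and myosin binding proteins were called in full, 5 of 5, 3 of 3, 6 of 6 and 2 of 2. Slow troponins were called in 1 of 3 and Z disc genes in 7 of 11.

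Directly between the treated groups, 0 of 42 genes tested were called, where 0.0273% of all 14653 genes were, and 27 of the 42 had an unadjusted p under 0.05 in edgeR, against 3.69% of all genes tested. DESeq2 called 0 as well and gave no p for 14 of the genes, which it held to be count outliers. The median log2 difference, PDXd-titled minus TDXd-titled, was 2.38 with all libraries and -0.48 without PDXd-titled replicate 2, so the sign for most genes rested on that library. ACTA1 changed from 2.46 (SE 1.04) to -0.58 (SE 0.33), CKM from 3.13 (SE 1.21) to -0.59 (SE 0.39) and ATP2A1 from 3.60 (SE 1.29) to -0.55 (SE 0.29). MB stayed at 0.08 (SE 0.10) and 0.05 (SE 0.11). Levels of the 2 groups overlapped for all 43 genes, where 8.18% of all genes did not overlap.

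Fast and slow genes were set against each other in 7 pairs of paralogs as the log2 ratio of their counts, with 0.5 added to each. These ratios do not account for gene length, so ratios of CPM per kb are given where the leading gene differs. The calcium-binding troponins, TNNC2 to TNNC1, gave 0.82, 3.80 and 1.13 in PBS, 3.80, 6.54 and 4.09 in the PDXd-titled libraries and 3.91, 4.5 and 4.56 in the TDXd-titled libraries. The fast gene led in all 9 libraries, and PDXd-titled replicate 2 had the highest ratio. The light chains MYLPF to MYL2 gave -2.49, -0.83 and -3.41 in PBS, -0.20, 5.57 and 3.07 in the PDXd-titled libraries and 2.90, 3.54 and 3.25 in the TDXd-titled libraries. Here the slow gene led in PBS and in PDXd-titled replicate 1, and the fast gene in the other treated libraries. Per kb of exon, MYLPF was ahead in PDXd-titled replicate 1 too, by 1.13 times. TNNI2 to TNNI1 gave -5.70, -3.64 and -5.55 in PBS, -2.43, 1.63 and -1.25 in the PDXd-titled libraries and -1.56, -0.77 and -1.60 in the TDXd-titled libraries, so by counts the fast gene exceeded the slow one in PDXd-titled replicate 2 only. Per kb of exon, TNNI2 was ahead in all 6 treated libraries, at 1.28 to 21.3 times TNNI1, and behind in PBS, at 0.132 to 0.553 times.

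For TNNT3 to TNNT1 the values were -8.02, -7.08 and -15.08 in PBS, -6.53, -0.57 and -4.77 in the PDXd-titled libraries and -4.71, -4.65 and -5.24 in the TDXd-titled libraries, and the slow gene led in every library. MYL1 to MYL3 gave 2.32, 6.02 and 1.58 in PBS, 2.94, 4.36 and 4.42 in the PDXd-titled libraries and 4.11, 3.83 and 4.06 in the TDXd-titled libraries. MYH4 to MYH7 gave 4.97, 9.21 and 2.32 in PBS, 6.94, 6.33 and 8.08 in the PDXd-titled libraries and 5.54, 5.77 and 6.63 in the TDXd-titled libraries. The last 2 pairs had the fast gene ahead in all 9 libraries. MYBPC2 to MYBPC1 gave -5.04, -0.70 and -0.89 in PBS, -1.35, 0.38 and -1.08 in the PDXd-titled libraries and -1.33, -1.69 and -1.14 in the TDXd-titled libraries, and by counts the slow gene led except in PDXd-titled replicate 2. Per kb of exon, MYBPC2 was also ahead in PBS replicates 2 and 3, by 1.23 and 1.08 times.

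The summed genes of the 7 pairs gave a log2 ratio of counts of -5.49 ± 2.18 (SD, n = 3) in PBS, -0.37 ± 2.63 (SD, n = 3) in the PDXd-titled group and -1.32 ± 0.16 (SD, n = 3) in the TDXd-titled group. PDXd-titled replicate 2 was at 2.56, and no other library was above 0. The negative sums came from the TNNT1 and TNNI1 pairs. Without these pairs, a choice made after the values were seen, the ratio was 1.47 ± 1.82 in PBS, 4.0 ± 1.03 in the PDXd-titled group and 3.70 ± 0.27 in the TDXd-titled group (SD, n = 3 each). The PBS libraries then ran from -0.06 to 3.48 and the treated ones from 3.03 to 5.09, and PBS replicate 2 lay within the treated range.

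**Figure D5:**
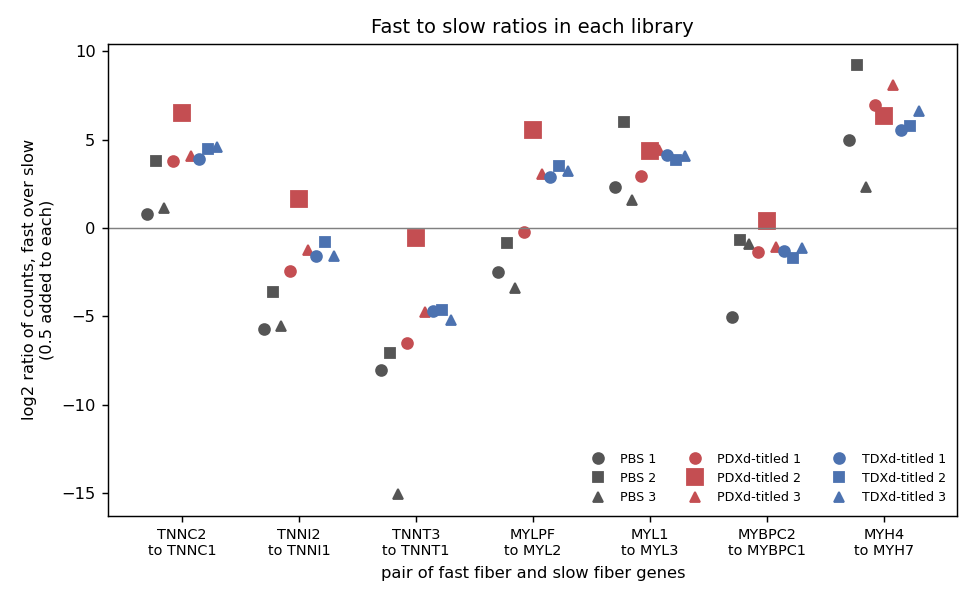
Log2 ratio of counts of the fast to the slow fiber gene (0.5 added to each) in 7 pairs of paralogs, 1 marker for each of the 9 libraries, with PBS in gray, PDXd-titled in red and TDXd-titled in blue. PDXd-titled replicate 2 (large red square) has the highest ratio of all libraries in 5 of the 7 pairs, and PBS replicate 3 reaches -15.08 in the TNNT3 to TNNT1 pair, where its TNNT3 count was 0.

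Muscle genes outside the list were called higher more often than lower. Of 39 further sarcomere and Z disc genes in the tables, 35 were tested with both treated groups against PBS, with 17 called higher and 3 lower, where 15.2% of all genes tested were called higher and 17.1% lower. NRAP, a scaffold of myofibril assembly, was at 0.125, 0.609 and 0.0267 CPM in the PBS libraries, 1.16, 39.4 and 3.30 CPM in the PDXd-titled libraries and 3.18, 2.72 and 2.98 CPM in the TDXd-titled libraries. Of 22 excitation and calcium genes tested, 10 were called higher and 1 lower, and of 18 energy genes 8 were called higher and 0 lower. Without PDXd-titled replicate 2 the 3 lists had 15, 7 and 9 genes called higher and 6, 3 and 1 called lower. SCN4A, the sodium channel of skeletal muscle, was at 0.0909, 0.218 and 0.0979 CPM in the PBS libraries, 0.334, 11.3 and 0.517 CPM in the PDXd-titled libraries and 0.992, 0.377 and 0.533 CPM in the TDXd-titled libraries. AMPD1, the AMP deaminase of fast fibers, was at 0.0568, 0.0156 and 0.0178 CPM in the PBS libraries, 0.0357, 6.62 and 0.198 CPM in the PDXd-titled libraries and 0.110, 0.256 and 0.259 CPM in the TDXd-titled libraries. Summed over each of these 3 lists, PDXd-titled replicate 2 was the highest library, at 1.77, 2.00 and 1.96 times the mean of replicates 1 and 3.

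Of 17 myogenic genes listed, 7 were in the tables, and MYOD1, MYF5 and PAX7 were not among these. All 7 were tested with both treated groups against PBS and 3 were called higher, against 15.2% of all genes tested. MYF6, a factor of mature fibers, was at 0.0227, 0.141 and 0 CPM in the PBS libraries, 0.0476, 3.58 and 0.259 CPM in the PDXd-titled libraries and 0.606, 0.552 and 0.411 CPM in the TDXd-titled libraries. MYOG, a factor of differentiating myoblasts, was at 0.0227, 0.0858 and 0 CPM in the PBS libraries, 0.214, 0.587 and 0.396 CPM in the PDXd-titled libraries and 0.620, 0.430 and 0.289 CPM in the TDXd-titled libraries. MEF2C, which vessels and immune cells also express, was at 10.6, 9.44 and 4.82 CPM in the PBS libraries, 25.6, 149 and 34.3 CPM in the PDXd-titled libraries and 40.2, 33.6 and 32.2 CPM in the TDXd-titled libraries. MYOG was raised less than MYF6 in PDXd-titled replicate 2. Of 10 heart genes listed, 8 were in the tables and 6 were tested, with 5 called higher. NPPA and MYL7 were near 0 and did not rise. NPPA ran from 0.0445 to 0.261 CPM in PBS and 0 to 0.0551 CPM in the treated libraries, MYL7 from 0.0341 to 0.125 CPM and 0 to 0.0538 CPM. ACTC1, a cardiac actin also made by immature skeletal muscle, was at 0.318, 0.546 and 0.0890 CPM in the PBS libraries, 0.989, 30.2 and 2.60 CPM in the PDXd-titled libraries and 5.63, 5.43 and 2.67 CPM in the TDXd-titled libraries. MYH6, a cardiac heavy chain that shares a run of 395 coding bases with MYH7, was at 0.0568, 0.0312 and 0.00890 CPM in the PBS libraries, 0.0476, 8.44 and 0.137 CPM in the PDXd-titled libraries and 0.441, 0.229 and 0.198 CPM in the TDXd-titled libraries, so its counts are uncertain.

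No summed list of markers of other cell types rose in PDXd-titled replicate 2 as the muscle genes did, and some sums were lowest there. The summed CPM of that library was divided by the mean of replicates 1 and 3, over the listed genes found in both tables. This ratio was 0.954 for 13 smooth muscle and pericyte genes, 0.765 for 10 adipocyte genes and 0.699 for 9 keratinocyte genes. It was 0.886 for 8 Schwann cell and nerve genes and 1.21 for 14 fibroblast genes. For 8 endothelial genes it was 1.26 and for 7 macrophage genes 1.21. By sum, that library was the lowest of all 9 for keratinocyte genes, at 244 CPM. It was the lowest treated library for adipocyte genes, at 183 CPM, and for Schwann cell and nerve genes, at 77.7 CPM. Single genes at least 2 times the mean of replicates 1 and 3 there numbered 2 of the smooth muscle and pericyte list. The adipocyte, Schwann cell and macrophage lists had 1 each. Between treated libraries and PBS some of these lists moved with the muscle genes. Macrophage genes summed to 4.66 to 5.79 CPM in PBS and 14.7 to 34.6 CPM in the treated libraries, and adipocyte genes to 146.0 to 175.8 CPM and 183 to 253 CPM. Keratinocyte genes went the other way, with 483 to 1533 CPM in PBS and 244 to 378 CPM in the treated libraries. Of the 9 keratinocyte genes tested with both treated groups against PBS, 5 were called lower and 0 higher. Fibroblast genes summed to 3817 to 4328 CPM in PBS and 2249 to 3387 CPM in the treated libraries, a sum in which FN1, called lower, ran from 1843 to 2892 CPM and from 444.6 to 627 CPM, but 8 of the 13 tested were called higher and 2 lower, with a median log2 fold change of 0.94. Among macrophage genes 4 of 6 tested were called higher and 0 lower, and among adipocyte genes 4 of 7 and 0. LYZ ran from 0.663 to 1.83 CPM in PBS and 6.22 to 15.3 CPM in the treated libraries, CSF1R from 2.51 to 2.87 CPM and 6.44 to 14.5 CPM, and the adipocyte gene CFD from 5.70 to 7.55 CPM and 33.4 to 53.2 CPM. Other defining markers were near 0, with FABP4 at 0.0089 to 0.317 CPM and CD68 at 0 to 0.122 CPM over the 9 libraries. Of the genes listed for these types, 11 of 15 adipocyte, 8 of 13 macrophage and 10 of 12 keratinocyte genes were in at least 1 table. The part of these cells in the muscle gene values was not tested.

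The 10 genes outside the list whose log2 CPM followed the mean of the 43 genes most closely over the 9 libraries, among 12438 genes with a mean count of at least 100, included RBFOX1, NRAP, ACTC1, MEF2C, IPO13, STAT5B, APOBEC2, FABP3 and MAFA, and Pearson r over the 10 ran from 0.99 to 0.962. Leaving out PDXd-titled replicate 2, r over the 10 ran from 0.917 to 0.995. Of the 10, 5 belonged to a list described above. NRAP was of the sarcomere list, APOBEC2 and FABP3 of the energy list, ACTC1 of the heart list and MEF2C of the myogenic list. RBFOX1, a splicing factor of muscle and neurons, was at 0.0454, 0.258 and 0 CPM in the PBS libraries, 0.286, 17.6 and 0.745 CPM in the PDXd-titled libraries and 1.45, 1.06 and 0.442 CPM in the TDXd-titled libraries. The 9 points share their libraries and the treated groups, and the values are a description.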

How the data were processed

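RNA of 9 PC3 xenografts was sequenced from TruSeq mRNA libraries. Per the study's methods and the processing notes, adapters were removed by Cutadapt, reads were mapped by STAR and reads per gene were tallied by featureCounts. The authors deposited these raw counts, without normalization, as 1 table for each conjugate with identical PBS columns, and list protein-coding genes only. Strand settings, treatment of reads that match several genes and removal of mouse reads are not given in the sources used here. The processing notes name GRCh38.p13, but 224 listed genes end beyond their GRCh38 chromosome, so coordinates of the tables are not printed.

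Groups came from sample titles, with replicates numbered in the order of the records. Each title carries its own code, but nothing read here states that the libraries came from separate mice, so p-values measure only the spread between these libraries. The chosen genes and all gene lists were drawn up with earlier results of these data known. Levels are CPM over TMM-scaled library sizes, or CPM per kb of exon union (GENCODE v44). Groups were compared with the edgeR 4.0.16 quasi-likelihood F test in R 4.3.3 after filterByExpr, on the libraries compared, and a gene was called at a Benjamini-Hochberg adjusted p of at most 0.05 over all genes tested and a fold change of at least 1.5. The procedure was tested on simulated data in which no library stood apart from its group, so that test does not cover PDXd-titled replicate 2. Alternatives were DESeq2 1.42.0, its size factors in edgeR, no filter, a minimum of 10 counts in every library, 1 fit over all 9 libraries, a replicate block and leaving out each library. Values in each library are given for ACTA1, CKM, MYLPF, TNNC2, CASQ1, the 7 fast and slow pairs and the 3 most counted genes of each other role. Outside the list, the rule took up to 3 called genes with the largest change in each gene list and the 10 genes most like the group, and a part of these is shown, while some genes the rule took are not reported here. MYOT and the other genes named beyond this rule, FABP4, CD68 and CSF1R among them, were chosen after their values were seen. Depth was 54481702 to 125538606 counts per library, a library at 0 was given a floor of 3 counts, and floors cover counting error only.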

Additional observations from a re-analysis of the deposited data

Results flagged for a closer look

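Dixon's test of the most distant sample was run on 17 sets of values over the 6 treated libraries by the gap from the highest or lowest library to its nearest neighbor, as a share of the whole range. In sets chosen without regard to the values, chance marks about 1 in 20. The muscle genes were chosen with PDXd-titled replicate 2 already known to be high in them, so the gaps describe that choice and are not a test of it. PDXd-titled replicate 2 was the distant library in 16 of the 17 sets, which share the same libraries and many genes. The gap was 0.952 of the range for the share of counts taken by all 43 muscle genes and 0.725 for the log2 fast to slow ratio. By role it was 0.955 for the fast fiber myosins and light chains, 0.932 for the slow fiber myosins and light chains, 0.947 for the developmental myosin, 0.962 for the fast fiber troponins, 0.946 for the thin filament and giant proteins, 0.952 for the myosin binding proteins, 0.913 for the Z disc and costamere genes, 0.973 for the calcium genes and 0.954 for the energy genes. For the muscle genes outside the list it was 0.729 for sarcomere and Z disc genes, 0.872 for excitation and calcium genes, 0.923 for energy genes, 0.875 for myogenic genes and 0.841 for heart genes. The slow troponins were the set without such a gap.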

How the results depend on the processing

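Counts of called muscle genes changed when single libraries were left out. A fit with fewer libraries can also call fewer genes of any kind. Of all alternatives in this section, the share of all genes called is given only for fits without PDXd-titled replicate 2, above. For the rest, a change in the muscle genes cannot be told from a change in all genes. Leaving out 1 library at a time, the PDXd-titled comparison with PBS gave 3 to 30 called genes (24 with all libraries), the TDXd-titled comparison 15 to 35 (27) and both groups against PBS 14 to 33 (32). The lowest values came without PDXd-titled replicate 2, TDXd-titled replicate 1 and PBS replicate 3, respectively. For the other muscle genes the ranges were 9 to 33, 16 to 39 and 22 to 41, against 22, 31 and 39 with all libraries. Their lowest values came without PBS replicate 2, PDXd-titled replicate 2 or PDXd-titled replicate 3 (9 each), TDXd-titled replicate 2 and PBS replicate 3. A minimum of 10 counts in every library left only 26 genes of the list tested in each comparison with PBS. It gave 13, 16 and 16 called genes of the list and, for both groups against PBS, 24 of the other muscle genes. A fit over all 9 libraries gave 37 called genes for the PDXd-titled and 9 for the TDXd-titled group, and 41 and 19 of the other muscle genes, and the cause was not tested. DESeq2 called 7 genes for both groups against PBS, having given no p for 29. The comparison between the treated groups gave 0 for both sets of genes under each alternative run. Genes of the list at least 2 times higher in mean CPM in the PDXd-titled group than in PBS numbered 39, and 32 without PDXd-titled replicate 2, a check added after seeing the data. A replicate block on the digit before the point in the title code called 24, 25 and 32 genes of the list and 19, 26 and 38 of the other muscle genes. Deviations from group means correlated at -0.135 to 0.149 between libraries with the same digit and -0.209 to 0.164 otherwise. No pairing by the digit was seen, though groups of 3 libraries cannot exclude one. Without the 5 most counted genes the mean share of counts was 0.00754% in PBS and 0.0268% in the TDXd-titled group. The log2 fast to slow ratio, taken as the median of the 7 pairs, was -1.36 in PBS, 2.41 in the PDXd-titled and 3.23 in the TDXd-titled group, without the TNNT1 and TNNI1 pairs, chosen after seeing the data, 1.47, 4.0 and 3.70, and without the myosin heavy chain pair -1.90 in the TDXd-titled group. Among log2 fold changes of single named genes, 60 values moved by more than 1 SD without PDXd-titled replicate 2 and 15 without PBS replicate 2. With 8 of the genes at 0 counts in PBS replicate 3, depth limits how closely their fold changes can be known.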
